A study of Mus musculus with 8 samples.

Results

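The genes described here encode 9 proteins that carry sodium, chloride and bicarbonate across the gallbladder epithelium. They are the epithelial sodium channel subunits Scnn1a, Scnn1b and Scnn1g, the chloride channel gene Cftr, the cotransporter gene Slc12a2, the exchanger genes Slc9a3 and Slc4a2, the sodium bicarbonate cotransporter gene Slc4a4 and the sodium pump subunit gene Atp1b1. The genes were chosen by name, and every array feature (probe set) annotated to 1 of them alone was taken. This gave 21 of the 45101 probe sets on the array, with all 9 genes represented among 18194 named genes. Of the 21 probe sets, 17 from 7 genes were bright enough to be tested, and 4 were not, among them the only ones for Scnn1b and Scnn1g.

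All mice were obese females of strain B6.V-Lep ob, whose mutation removes functional leptin, so the saline controls lacked the hormone too and there was no lean group in the comparison. They arrived aged 7 weeks, had 1 week to settle, and then received an intraperitoneal injection of saline or of recombinant mouse leptin, at 5 µg per g of body weight, daily for 4 weeks. Gallbladders were taken at 12 weeks of age after a night without food. RNA came from 4 pools per treatment, each of 3 gallbladders from different animals, out of 12 mice per treatment and 24 in all, and each pool was measured on 1 array. The labels of 1 saline pool leave the strain unnamed. Pools keep the numbers of the labels, saline 1 to 4 and leptin 5 to 8.

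The gallbladder concentrates bile between meals by absorbing sodium, chloride and bicarbonate, with water following the salt. Sodium enters the cell from bile through apical exchangers such as NHE3, the product of Slc9a3, or through the epithelial sodium channel, and the basolateral sodium pump moves it out. The same epithelium can secrete: the cotransporter NKCC1 (Slc12a2) loads chloride and NBCe1 (Slc4a4) loads bicarbonate from the blood side, and CFTR, opened by cyclic AMP, lets anions leave into bile. The anion exchanger AE2 (Slc4a2) swaps chloride for bicarbonate and helps to hold cell pH.

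Scnn1a fell with leptin by a factor of 2.15 (95% confidence interval 1.67 to 2.77). Slc12a2 rose on 2 of its 3 probe sets, by factors of 1.63 and 1.85, and Slc4a4 fell on 2 of its 4 tested probe sets, by factors of 1.28 and 1.35. Slc4a2, Slc9a3, Cftr and Atp1b1 had no probe set past the threshold. In all, 5 of 17 tested member probe sets were called at a limma adjusted p under 0.05, 2 higher and 3 lower with leptin. Among all 22519 tested probe sets 6.93% were called, 3.54% higher and 3.39% lower. With arrays centred on their medians in place of their trimmed means, 10 of the 17 were called, 1 higher and 9 lower, and 3992 of all, 406 higher and 3586 lower. With arrays centred on epithelial markers 5 of the 17 were called, 4 higher and 1 lower. This centring moved the median log2 fold change of all tested probe sets to 0.30, and calls over all were not counted. With an RNA quality measure (the actin 3' to 5' ratio) as a covariate 0 of the 17 were called, and 654 of all. For 7 of the 17, all leptin pools lay on the same side of all saline pools, against 15.5% of all tested probe sets. The median log2 fold change, leptin minus saline, was -0.17 over the 17 and 0.039 over all, and several of the 17 report the same gene, so they are not independent.

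**Figure D1:**
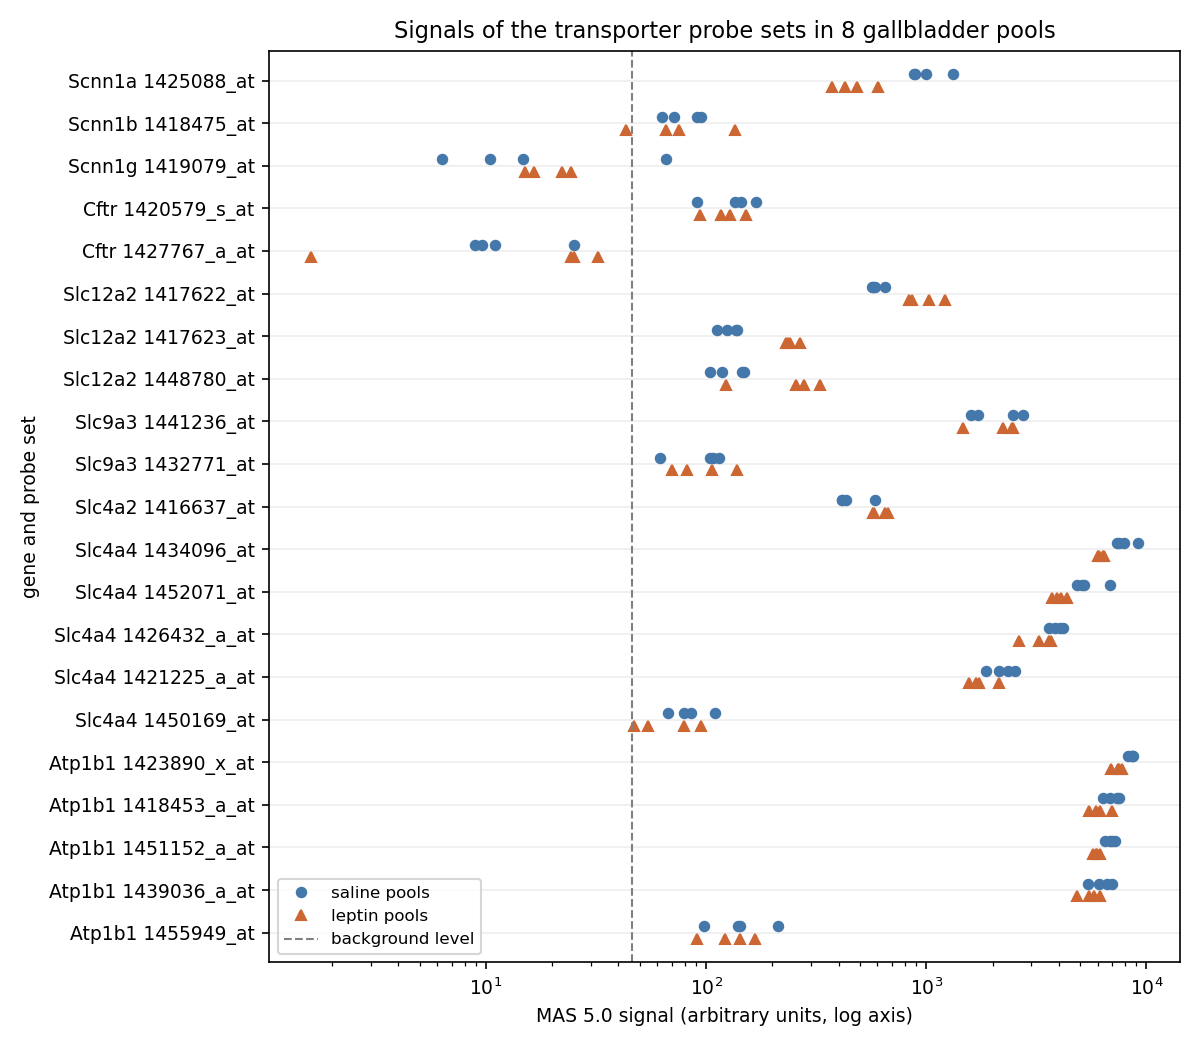
MAS 5.0 signal (horizontal log axis, arbitrary units) of all 21 probe sets of the 9 genes, with 4 saline pools (circles) and 4 leptin pools (triangles) each. The dashed line is the background level of 46.0; the pools of the treatments are separated for Scnn1a and for 2 Slc12a2 probe sets, and lie among each other for Slc9a3.

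Start-site sequences are shown for Slc4a4 and Atp1b1, the genes with several bright probe sets whose signals were all lower with leptin. Slc4a4 has an upstream start and an internal start, which give proteins that differ at the amino end. The 3 windows each hold the 250 bases before a start in RefSeq, build GRCm38.p6, written 5′ to 3′ on the gene's strand. Capitals mark matches on either strand to CCAAT (the motif of factor NF-Y) or to GGGCGG (the GC box).
Slc4a4 upstream start, chr5:88887010-88887259, plus strand: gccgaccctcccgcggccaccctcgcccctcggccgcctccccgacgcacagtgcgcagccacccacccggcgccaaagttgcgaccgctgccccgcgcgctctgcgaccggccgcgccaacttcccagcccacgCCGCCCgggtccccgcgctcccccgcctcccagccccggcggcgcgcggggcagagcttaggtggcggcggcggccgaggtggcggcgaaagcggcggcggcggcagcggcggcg
Slc4a4 internal start, chr5:89027716-89027965, plus strand: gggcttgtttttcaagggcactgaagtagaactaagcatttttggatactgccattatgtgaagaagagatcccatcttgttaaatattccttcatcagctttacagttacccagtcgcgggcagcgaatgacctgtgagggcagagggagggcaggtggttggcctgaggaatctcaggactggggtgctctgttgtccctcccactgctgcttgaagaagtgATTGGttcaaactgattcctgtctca
Atp1b1, chr1:164458356-164458605, minus strand: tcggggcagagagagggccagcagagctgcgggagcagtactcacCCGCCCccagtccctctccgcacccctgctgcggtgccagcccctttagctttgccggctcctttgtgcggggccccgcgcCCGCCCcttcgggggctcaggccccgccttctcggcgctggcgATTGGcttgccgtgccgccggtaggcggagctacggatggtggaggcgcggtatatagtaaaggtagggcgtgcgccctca
The upstream Slc4a4 window held 1 GC box and the internal one 1 CCAAT match. That of Atp1b1 held 2 GC boxes and 1 CCAAT match. Windows were found for 7 of the genes, 9 in all, with none for Scnn1a or Slc12a2, whose start sites were therefore not examined. Over these 9 windows, 6 held a GC box and 2 held CCAAT, against 32.7% and 33.9% of all 32851 windows of this length. None of the 9 held TTCNNNGAA (the STAT site, in 7.02% of all windows), AGAACA (a glucocorticoid half-site, 16.1%), TGACG (the cyclic AMP element core, 17.8%) or TATAAA (the core promoter box, 12.4%) on either strand. These are letter matches in short windows and describe no binding.

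Scnn1a encodes the alpha subunit of the epithelial sodium channel, which the channel needs to reach the cell surface in quantity. Its signal was 1328, 883, 888 and 1001 in saline pools 1 to 4, and 430, 374, 487 and 601 in leptin pools 5 to 8. Every leptin pool lay below every saline pool, with saline 1 the highest and leptin 6 the lowest. The means were 1025 ± 209 (SD, n = 4) and 473 ± 96.7 (SD, n = 4), and the log2 fold change was -1.10 ± 0.17 (SE; limma adjusted p = 0.0022). Leaving out any 1 pool kept the call, with log2 fold changes from -1.22 to -0.97 and adjusted p up to 0.0091.

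Scnn1b and Scnn1g encode the beta and gamma subunits, which complete the channel. The Scnn1b signal was 63.3, 94.5, 71.7 and 91.3 in the saline pools and 75.2, 135, 43.2 and 65.4 in the leptin pools. All saline pools but only 3 of the 4 leptin pools exceeded the background of 46.0, and the treatments overlapped. Scnn1g exceeded it in 1 of 4 saline pools, at 65.5, and in 0 of 4 leptin pools, where the signals ran from 15.0 to 24.3. A change of Scnn1g was not detectable at these levels. For Scnn1b the log2 fold change without the filter on dim probe sets was -0.093, with a 95% interval of -0.86 to 0.67.

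Some markers of epithelial cells were also lower, though whole-organ pools do not assign the transporter transcripts to these cells. Of 12 tested epithelial markers, against 8.27% of all tested genes called, 3 fell (Krt7, Krt8 and Krt18, keratins of simple epithelia) and 0 rose, with a median log2 fold change of -0.30, and all 12 were above background in at least 1 pool. Their log2 fold changes were -0.96 ± 0.16 for Krt7 (SE; limma adjusted p = 0.0041), -0.58 ± 0.10 for Krt8 (0.0051) and -0.35 ± 0.089 for Krt18 (0.035). The epithelial transcription factor genes Elf3 and Ehf were at 0.32 ± 0.12 (limma adjusted p = 0.13) and 0.28 ± 0.13 (0.24), and the adhesion gene Epcam at -0.0062 ± 0.12 (0.98). The summed signal of the list ran from 41573 to 53146 in saline pools and from 34086 to 39535 in leptin pools. With each array centred on the mean of these markers, the log2 fold change of Scnn1a was -0.84 ± 0.16 (SE; limma adjusted p = 0.0063) relative to the list. In pooled whole organs, fewer cells of a type and less RNA per cell cannot be told apart.

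Slc12a2 moved in the opposite direction. On probe set 1417622_at the signal was 651, 572, 566 and 587 in saline pools 1 to 4 and 1220, 836, 860 and 1030 in leptin pools 5 to 8. On 1417623_at it was 112, 136, 138 and 125, and 239, 236, 266 and 230. On both, every leptin pool lay above every saline pool. The log2 fold changes were 0.71 ± 0.14 (SE; limma adjusted p = 0.0089) and 0.89 ± 0.16 (SE; 0.0059), and both calls held without any 1 pool (adjusted p up to 0.031 and 0.019).

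The third Slc12a2 probe set, 1448780_at, overlapped because of 1 pool. Its signal was 118, 149, 104 and 146 with saline, and 278, 123, 330 and 257 with leptin, so that leptin 6 alone lay inside the saline range. The log2 fold change was 0.82 ± 0.27 (SE; limma adjusted p = 0.085), and 1.12 without leptin 6 (adjusted p = 0.0090). All 3 probe sets were designed from the same sequence record, so they are not independent evidence on the gene.

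**Figure D2:**
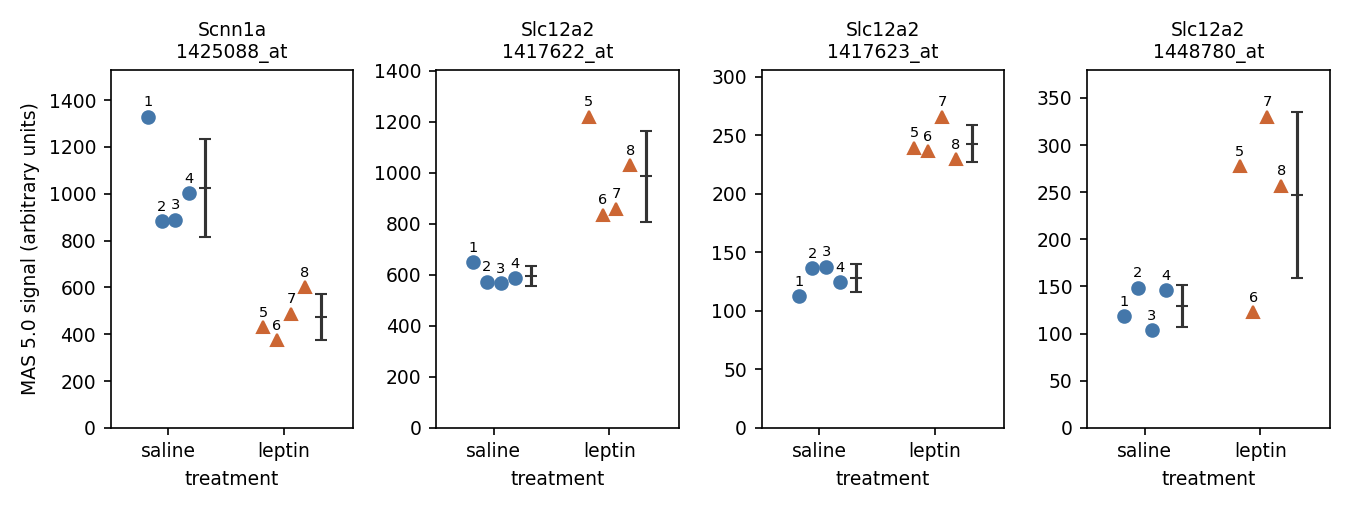
MAS 5.0 signal (vertical axis, arbitrary units, from 0) of Scnn1a and the 3 Slc12a2 probe sets by treatment; points are pools, labelled with their numbers, and bars show the mean and SD of 4 pools. Scnn1a is lower in all leptin pools, Slc12a2 is higher on 1417622_at and 1417623_at, and on 1448780_at leptin 6 lies with the saline pools at 123.

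Because both genes were read on the same arrays, a constant factor applied to an array cancels in their ratio, which intensity-dependent scaling (quantile, cyclic loess) can still change. The log2 ratio of Slc12a2 (1417622_at) to Scnn1a, set to a mean of 0 in saline, ran from -0.26 to 0.14 in saline pools and from 1.53 to 2.25 in leptin pools, with a leptin mean of 1.81 ± 0.33 (SD, n = 4). The leptin means were 1.99 ± 0.31 with 1417623_at and 1.93 ± 0.48 with 1448780_at. The ratios of the treatments were apart on all 3 probe sets, the lowest leptin value being 1.36. With 1417622_at and 1417623_at this had to be so, because the pools of each gene were already apart, in opposite directions. The separation therefore adds no support to either change. This pair was chosen after its values were seen, and the ratio shows unequal change only.

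Leukocyte markers rose in the same pools as Slc12a2, which is transcribed in many cell types. All 8 macrophage markers were called higher, against 8.27% of all tested genes called in either direction. Their median log2 fold change was 1.07, and their summed signal was 3580 to 4996 in saline and 8599 to 10140 in leptin pools. Among B and plasma cell markers all 4 tested genes rose, and the list's summed signal went from 378 to 485 in saline to 12719 to 20633 in leptin pools. Of these 4, Jchain read only 45.7 to 82.3 in saline pools and passed the brightness filter through its leptin signals. Its count as a tested gene that rose is therefore no independent result. The part of leukocytes in the Slc12a2 result was not tested.

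Slc4a4, which brings sodium and bicarbonate into the cell from the blood side, was well above background on 4 of its 5 probe sets. On 1434096_at the signal was 7887, 7494, 7330 and 9185 in saline pools and 6314, 6033, 6067 and 6431 in leptin pools. On 1452071_at it was 5092, 5186, 4831 and 6824, and 3721, 4081, 4347 and 3922. The treatments did not overlap on either, and saline 4 was the highest on both. The log2 fold changes were -0.35 ± 0.093 (SE; limma adjusted p = 0.039) and -0.44 ± 0.12 (SE; 0.040).

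Both Slc4a4 calls lay close to the threshold and rested on the full set of pools. Without any pool but saline 3, 1434096_at was no longer called (adjusted p up to 0.11), while 1452071_at kept its call without saline 1, saline 3 or leptin 7 and lost it without each of the others (highest adjusted p 0.096). With arrays centred on the epithelial markers, they were at -0.091 ± 0.11 (SE; limma adjusted p = 0.58) and -0.17 ± 0.12 (SE; 0.32). The probe sets 1426432_a_at and 1421225_a_at had log2 fold changes of -0.26 ± 0.12 (limma adjusted p = 0.20) and -0.32 ± 0.13 (0.15). On these the ranges were 3603 to 4173 with saline and 2626 to 3680 with leptin, and 1875 to 2532 and 1569 to 2131, so the treatments overlapped. The fifth probe set, 1450169_at, was too dim to be tested, at 67.1 to 110 with saline and 47.0 to 94.5 with leptin. Which of these probe sets reads transcripts from which start was not analysed here.

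Slc4a2 had higher signals in most leptin pools but did not pass. Its 1 probe set read 582, 434, 416 and 415 in saline pools and 573, 669, 577 and 646 in leptin pools. Saline 1 stood above the other saline pools and above leptin 5 and leptin 7, and it alone made the treatments overlap. The log2 fold change was 0.42 ± 0.14 (SE; limma adjusted p = 0.091). Without saline 1 it was 0.54 (adjusted p = 0.032), and centred on the epithelial markers it was 0.69 ± 0.14 (adjusted p = 0.010). It was not called when any other pool was left out (adjusted p up to 0.20). With median centring it was at 0.17 (adjusted p = 0.51), and 3 of the 20 other settings called it.

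Slc9a3, the apical exchanger of sodium for protons, differed little between treatments beside the spread of its pools. On 1441236_at the signal was 2481, 1720, 1588 and 2761 with saline and 2458, 1475, 2472 and 2238 with leptin. Each treatment had both high and low pools, and the log2 fold change was 0.025 ± 0.20 (SE; limma adjusted p = 0.96). Its 95% interval of -0.41 to 0.46 does not reach the change of Scnn1a. The dimmer probe set 1432771_at, at 61.9 to 114 with saline and 69.8 to 138 with leptin, was at 0.019 ± 0.28 (adjusted p = 0.98).

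Cftr, which encodes the anion channel opened by cyclic AMP signalling, lay not far above background. On 1420579_s_at it read 169, 136, 90.6 and 145 with saline and 151, 128, 93.6 and 117 with leptin, overlapping throughout. The log2 fold change was -0.12 ± 0.24 (SE; limma adjusted p = 0.80), with a 95% interval of -0.63 to 0.39. Its other probe set, 1427767_a_at, did not exceed background in any pool, with signals from 1.6 to 32.4.

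Atp1b1, the beta subunit that brings the sodium pump to the membrane, had 5 probe sets, all tested and none called. On 1423890_x_at the signal was 8685, 8612, 8273 and 8581 with saline and 6933, 7526, 7774 and 7457 with leptin. On 1451152_a_at it was 7190, 6832, 6477 and 6992, and 5902, 5743, 5960 and 6130. The treatments did not overlap on either, yet the log2 fold changes were small, -0.20 ± 0.081 (SE; limma adjusted p = 0.15) and -0.21 ± 0.082 (0.14), and neither passed. An x_at probe set can hold probes that match other transcripts as well. Over all 5 probe sets the values ran from -0.21 to -0.16, and centred on the epithelial markers all 5 turned positive, from 0.053 to 0.11.

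**Figure D3:**
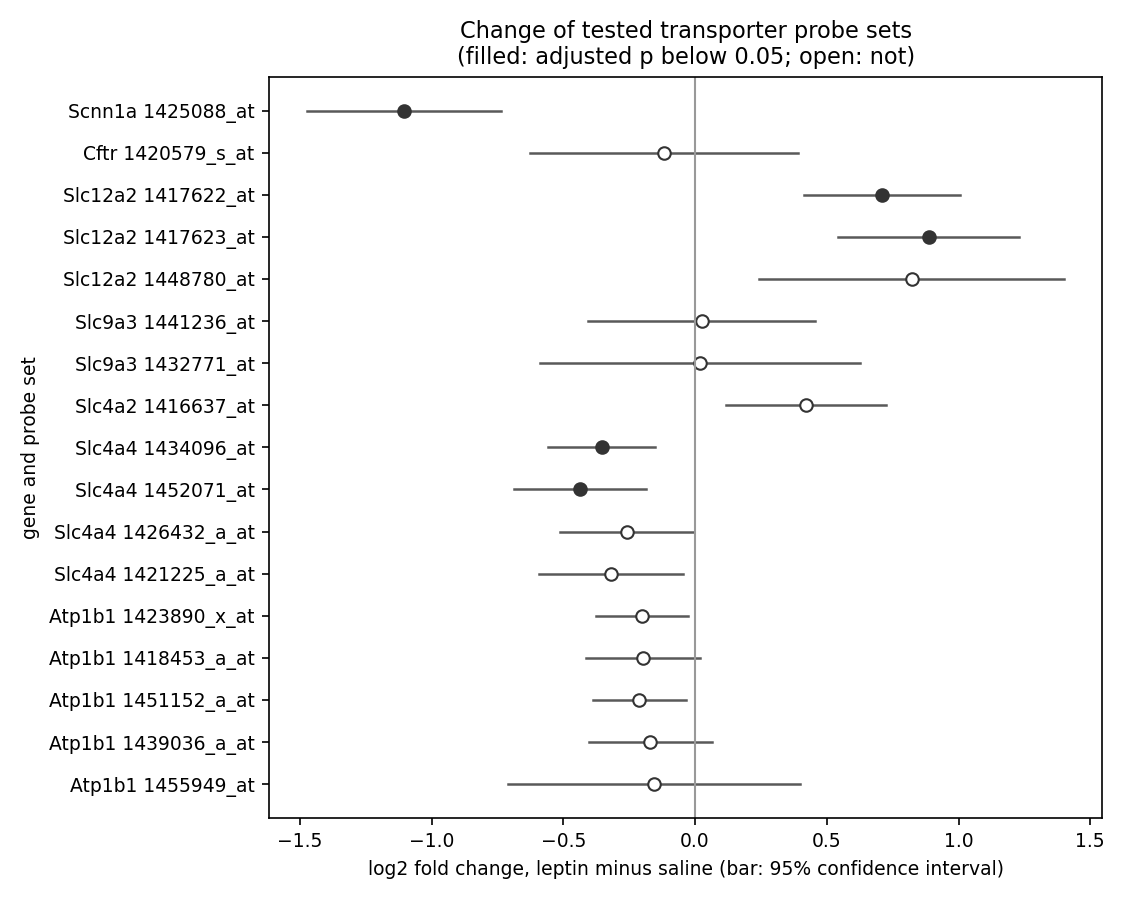
Log2 fold change, leptin minus saline (horizontal axis), of the 17 tested probe sets with 95% confidence intervals; filled points passed a limma adjusted p of 0.05. Scnn1a at -1.10 and the Slc12a2 probe sets at 0.71 and 0.89 lie farthest from 0 among the called ones; the Slc9a3 intervals span 0.

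A measure of RNA quality differed between treatments, with ranges that touched. The ratio of the 3' to the 5' actin signal, which rises as RNA degrades, was 1.5 to 1.68 in saline and 1.67 to 2.17 in leptin pools, while that of GAPDH was 0.774 to 0.870 and 0.791 to 0.846. With the actin ratio as a covariate 0 of the 17 probe sets were called. In that fit Scnn1a was at -0.88 ± 0.24 (SE; limma adjusted p = 0.074) and Slc12a2 at 0.49 ± 0.19 (0.19) and 0.87 ± 0.25 (0.091). Slc4a4 was at -0.33 ± 0.14 (0.23) on 1434096_at and -0.26 ± 0.16 (0.40) on 1452071_at, and Slc4a2 at 0.55 ± 0.21 (0.18). Since the ratio itself differs between treatments, this fit is less precise, and 654 of all probe sets passed in it in place of 1561.

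The other genes of epithelial ion transport were read from 8 lists of 106 genes. Of these, 93 were matched to a probe set with 1 symbol and 66 were tested, each on its brightest probe set. Of the 66, 1 rose and 3 fell, 6.06%, against 8.27% of all 11719 tested genes, and the median log2 fold change was -0.027 against 0.020. The share of 6.06% is near the background. Of these 4 calls, 3 were lost when some single pool was left out. With median centring 19 of the 66 were called, 0 higher and 19 lower, and 3992 of all 22519 tested probe sets. With epithelial marker centring 6 of the 66 were called, all higher. That centring put the median of all tested probe sets at 0.30, and calls over all were not counted.

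Regulators of the sodium channel had the lowest median of the 8 lists, -0.27. With 1 of 13 called, the list was near the 8.27% of all tested genes. That share is the background for the count of each transport or cell marker list below as well. The called gene was Sgk1, an aldosterone- and glucocorticoid-induced kinase that keeps the channel at the membrane, with signals of 4190 to 6741 in saline and 2730 to 3817 in leptin pools. Its log2 fold change was -0.75 ± 0.15 (SE; limma adjusted p = 0.0093) and stayed called without any 1 pool, but not centred on the epithelial markers (-0.49, 0.069) or with the actin covariate (-0.77, 0.082). The steroid-induced genes Tsc22d3 and Cnksr3 were at -0.42 ± 0.14 (0.088) and -0.44 ± 0.14 (0.087), uncalled, although Tsc22d3 passed without leptin 7 (-0.51, 0.043). Nedd4l, the ubiquitin ligase that removes the channel from the membrane, was at -0.27 ± 0.13 (0.23). Nr3c2, the mineralocorticoid receptor, and Hsd11b2, which shields it from glucocorticoids, were at 0.20 ± 0.20 (0.57) and -0.25 ± 0.28 (0.62).

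Among other sodium pump genes, 1 of 7 was called: Fxyd5, a small partner of the pump, rose from 340 ± 86.1 to 533 ± 47.9 (SD, n = 4 each). Its log2 fold change was 0.66 ± 0.17 (SE; limma adjusted p = 0.032), a call kept without saline 3 and lost without any other pool (up to 0.087). Atp1b3, another beta subunit, was at -0.32 ± 0.10 (0.074), and Fxyd6 at 0.59 ± 0.18 (0.062; called without leptin 8, 0.048). Fxyd3, another FXYD gene, was at 0.031 ± 0.11 (0.90).

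In the sodium-proton exchange list 1 of 6 was called. Ezr, which encodes ezrin and links membrane proteins to actin, fell by 0.51 ± 0.14 on the log2 scale (SE; limma adjusted p = 0.045), a call kept without saline 3 and lost without any other pool (up to 0.11). The NHE3 scaffold gene Slc9a3r1 was at -0.40 ± 0.13 (0.078) with treatments that did not overlap, and the scaffold gene Pdzk1 at 0.39 ± 0.20 (0.27). Among other anion exchangers 1 of 4 was called, the sulfate transporter gene Slc26a2, at -0.59 ± 0.15 (SE; 0.034; lost without any pool but leptin 5, up to 0.097). Slc26a3, the apical chloride-bicarbonate exchanger DRA, was at -0.23 ± 0.14 (0.35), and its signal ran from 5052 to 6649 with saline and from 4259 to 6917 with leptin. Slc26a1 was at 0.73 ± 0.22 (0.069), and passed without saline 3 (0.046) or leptin 7 (0.040).

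The chloride channel, cation-chloride cotransporter, potassium channel and cyclic AMP lists had 0 of 11, 0 of 9, 0 of 6 and 0 of 10 genes called. The lowest p-values were those of the chloride transporter gene Clcn5 (-0.47 ± 0.14, limma adjusted p = 0.060), the potassium channel gene Kcnk1 (-0.50 ± 0.15, 0.061) and Pde4d, a cyclic AMP phosphodiesterase gene (0.46 ± 0.15, 0.092). The chloride channel gene Clcn2 was at -0.55 ± 0.19 (0.098). Kcnk5, Prkar2a, a regulatory subunit of protein kinase A, and the WNK-pathway kinase gene Stk39 were at -0.42 ± 0.17 (0.15), -0.28 ± 0.11 (0.13) and -0.43 ± 0.19 (0.20). Slc12a4 was at -1.15 ± 0.42 (0.12), with leptin pools from 26.0 to 201. Without leptin 7, Clcn5 (0.0071) and Slc12a4 (0.025) passed, and without saline 3 Kcnk1 did (0.044).

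**Figure D4:**
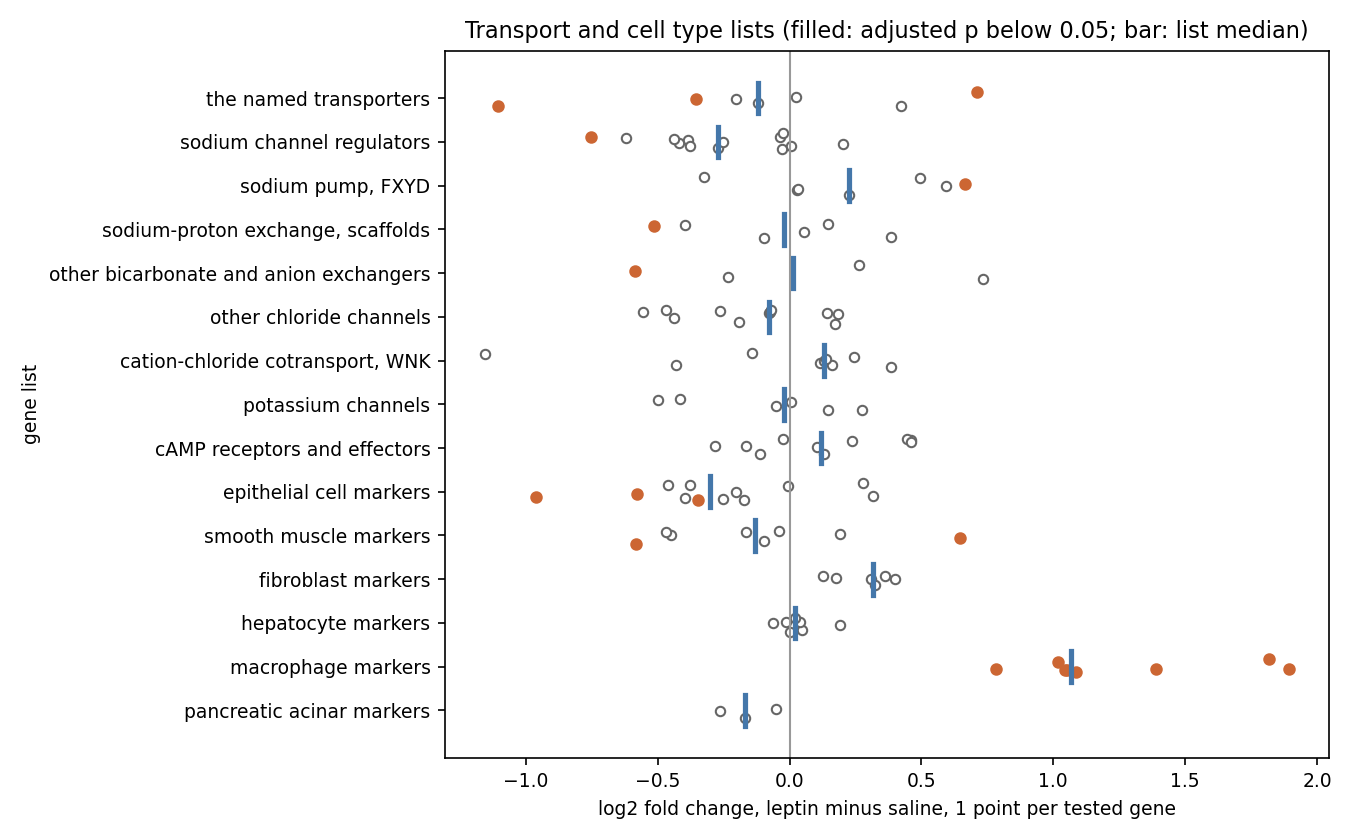
Log2 fold change, leptin minus saline (horizontal axis), of each tested gene in the transporter list, the 8 transport lists and 6 of the cell type lists; filled points passed a limma adjusted p of 0.05 and bars are list medians. The macrophage list lies at a median of 1.07 and the epithelial list at -0.30; the adipocyte and the B and plasma cell lists are left out for their wider range.

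The pools also held RNA of neighbouring cells. Alb, the albumin gene of hepatocytes, read 18442 ± 2966 with saline and 18859 ± 454 with leptin (SD, n = 4 each), and Ttr 17175 ± 2329 and 17517 ± 628. Of 7 hepatocyte markers 0 were called, with a median of 0.021 and summed signals of 68327 to 105222 and 80834 to 94975. The smooth muscle genes Acta2 and Tagln were at -0.039 ± 0.099 (limma adjusted p = 0.85) and -0.17 ± 0.11 (0.41), and of 8 such markers 1 rose and 1 fell. Fibroblast markers had 0 of 6 called (median 0.32) and pancreatic acinar markers 0 of 3 (median -0.17). Of 4 adipocyte markers (median -1.19) 1 was called, Cidec, which fell (-2.03 ± 0.26, limma adjusted p = 0.00052). Of the acinar genes, Ctrb1 averaged 2581 with saline and 2240 with leptin, and Cela1 1020 and 846. The others were dim: Prss2 averaged 132 and 139, and Cpa1 and Cela2a exceeded background in 0 saline pools. The acinar list therefore does not show that acinar cells were present. Summed signals in saline and leptin pools were 35705 to 47356 and 34481 to 43860 for muscle, and 15028 to 19225 and 18139 to 22480 for fibroblasts. They were 3071 to 4938 and 3013 to 4014 for the acinar list, and 897 to 4531 and 969 to 1802 for adipocytes. Their part in the transporter results was not tested.

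**Figure D5:**
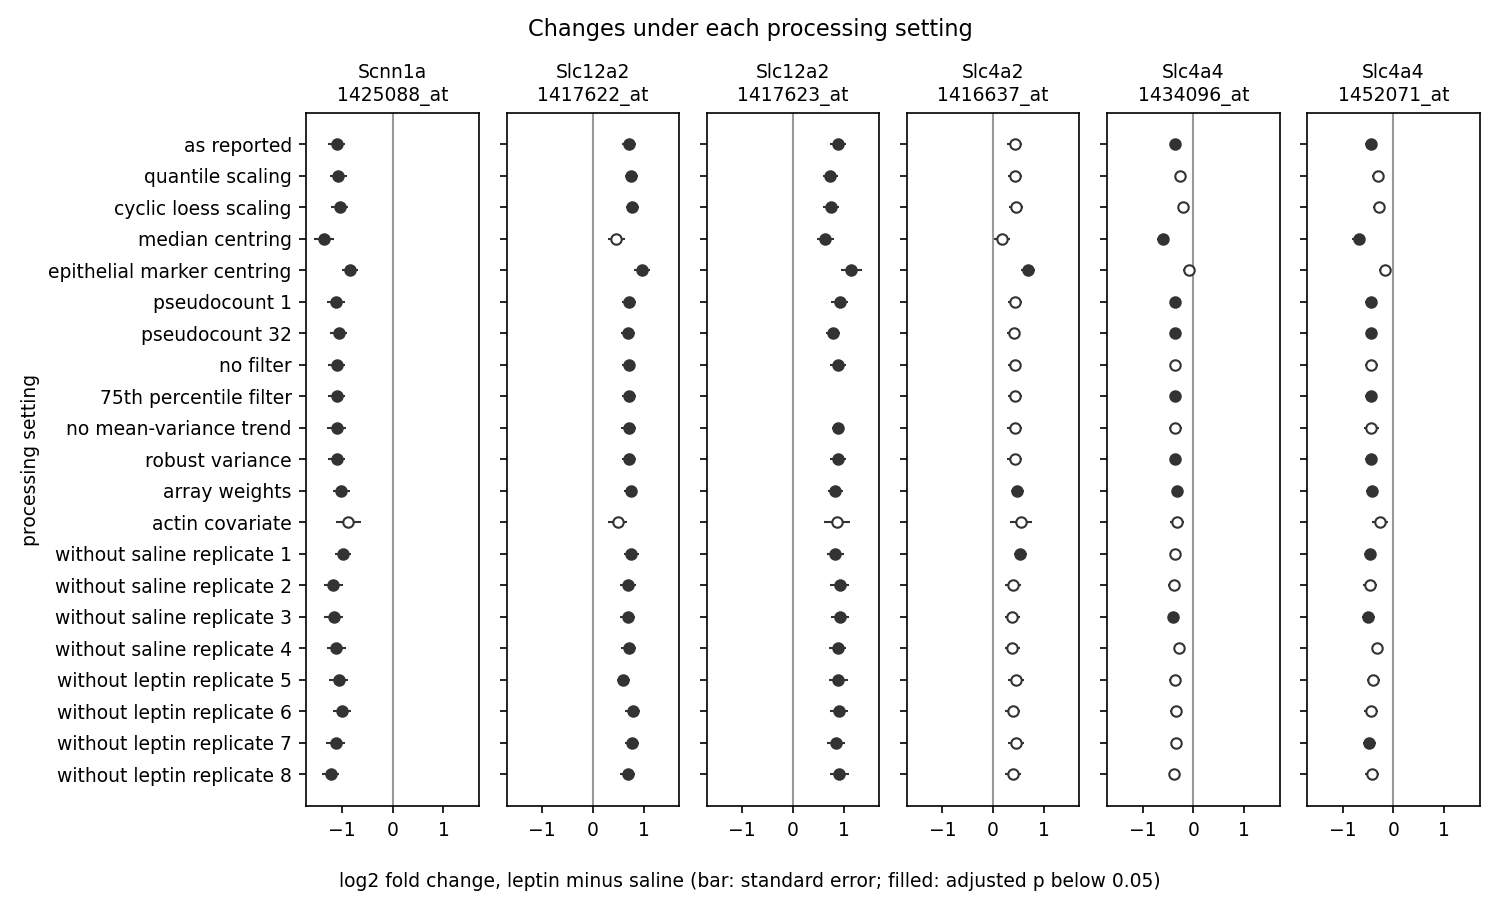
Log2 fold change with its SE (horizontal axes) for 6 probe sets of Scnn1a, Slc12a2, Slc4a4 and Slc4a2, as reported and under 20 other settings (rows); filled points passed a limma adjusted p of 0.05. Scnn1a is open in the row of the actin covariate only, while the Slc4a4 probe sets are open in most rows.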

How the data were processed

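MAS 5.0 signals on a linear scale, deposited by the authors as 1 intensity per probe set and array, were used; per the submitters' processing notes the tool was MAS5, whose version is not given in the sources used here. All arrays had a 2% trimmed mean of 250, so a change shared by all transcripts would not be seen. Array medians still differed, at 77.8 to 87.3 in saline and 94.0 to 107 in leptin pools. The share of probe sets above background was 63.3% to 66.9% in saline and 68.4% to 71.0% in leptin pools. What this difference contributed to the results was not tested. Signals of different probe sets cannot be compared as amounts. Arrays were rescaled to their mean 2% trimmed mean and taken to log2(signal + 8.2), the 10th percentile of all values, which understates changes of dim genes. After 64 control probe sets were removed, the brighter part by mean log2 value (22519 probe sets, from the median up) was tested. Leptin was compared with saline in limma 3.58.1 (R 4.3.3), using lmFit and eBayes with trend = TRUE, two-sided p-values adjusted by Benjamini-Hochberg over all tested probe sets, a threshold of 0.05 and n = 4 pools each. Background, 46.0, is the 95th percentile of 27 bacterial controls. Scan dates were not used here, so batches could not be examined. No 2 arrays were identical (mean absolute log2 difference 0.457 to 0.693).

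Symbols came from the array annotation, updated through Entrez identifiers for 34754 of 34958 probe sets with 1 symbol. All probe sets of the members were named, with the called and lowest-p genes of 8 transport lists, a few fixed regulators and the brightest genes of 8 cell type lists. Members and lists were chosen with earlier results of these data known. The fit was tested on simulated data. Alternatives covered scaling, pseudocount, filter, variance model, array weights, the actin ratio and each pool left out.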

Additional observations from a re-analysis of the deposited data

Results flagged for a closer look

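Of 42 groups of 4 pools examined, 3 had a pool far from the others by Dixon's criterion, which chance alone gives in about 1 group in 20. On the Slc4a2 probe set, saline 1 read 581.9, above the other saline pools. On the dimmer Slc9a3 probe set 1432771_at, saline 4 read 61.9, below the rest. On the Cftr probe set 1427767_a_at, which lay under background in all pools, leptin 6 read 1.6.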

How the results depend on the processing

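No paired analysis was possible because the pool numbers are not shared between treatments. Of the members, 5 probe sets were called as reported. The count was 3 under quantile scaling, cyclic loess scaling, no filter and no mean-variance trend, and 6 with array weights. It was 10 (1 higher, 9 lower) with median centring and 0 with the actin covariate, and ran from 3 to 5 without 1 pool. Over all tested probe sets 1561 were called (798 higher, 763 lower), 3992 (406 higher, 3586 lower) with median centring, 654 (249 higher, 405 lower) with the actin covariate, and 878 to 1436 without 1 pool. Quantile scaling gave 1179 over all, cyclic loess scaling 1201, no filter 1185, no mean-variance trend 1080 and array weights 2112. Of the transport genes 4 were called, 1 higher and 3 lower, and 6 (6 higher, 0 lower) with epithelial marker centring, where the member split was 4 higher and 1 lower. The transport count was 19 (0 higher, 19 lower), 2, 1, 8 and 0 under median centring, no filter, no mean-variance trend, array weights and the actin covariate, and 1 to 5 without 1 pool. Median centring put the median of all tested probe sets at -0.21 and epithelial marker centring at 0.30, against 0.039 as reported, so changes shift by that much. Scnn1a was called in 19 of 20 settings (-1.35 to -0.84), Slc12a2 in 18 of 20 on 1417622_at (0.46 with median centring, adjusted p = 0.067) and 18 of 19 on 1417623_at, and Slc4a4 in 7 and 9 of 20. The causes of these differences were not tested.

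Direction changed in settings where the value was not called. Centred on the epithelial markers, Cftr was at 0.15, Slc4a4 1426432_a_at at 0.0047, Hsd11b2 at 0.012, Slc26a3 at 0.029 and the Atp1b1 probe sets at 0.061, 0.067, 0.053, 0.094 and 0.11. With median centring the Slc9a3 probe sets were at -0.23 (1441236_at) and -0.23 (1432771_at), Nr3c2 at -0.049 and Fxyd3 at -0.22. Slc9a3 1432771_at was at -0.21 under quantile and -0.21 under loess scaling, and array weights gave -0.050. Under adjustment for the actin ratio, Atp1b1 was at 0.038 (1418453_a_at) and 0.094 (1439036_a_at), Pdzk1 at -0.096, Slc26a3 at 0.18 and Slc12a4 at 0.088. Without 1 pool, Slc9a3 ran from -0.10 to 0.20 and from -0.17 to 0.16, Atp1b1 1455949_at from -0.33 to 0.028 and Fxyd3 from -0.029 to 0.097. Dim signals limit Scnn1g and Cftr 1427767_a_at, and the number of arrays limits all values.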
